A study of Mus musculus with 9 samples.

Results

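The transcripts of 8 small leucine-rich proteoglycans and of versican were followed in whole osteosarcomas from genetically engineered mouse models (GEMMs). The genes are Bgn, Dcn, Lum, Fmod, Omd, Ogn, Aspn, Prelp and Vcan. They were taken by gene symbol, and all 9 were found among the 55367 genes of the deposited count table. The comparison was between 4 p53-driven tumors, of genotype Col2.3-Cre/TrpP53fl/+, and 5 Myc-knockin tumors, whose genotype adds the (LSL)-c-MycT58A allele (LSL, Lox-Stop-Lox) to Cre and p53fl/+. In both models Cre is driven by the osteoblast-specific promoter Col2.3 and recombines a single floxed allele of Trp53. The Myc-knockin mice carry in addition a c-Myc gene with the T58A change behind a stop cassette that Cre removes. Each library is the RNA of 1 whole tumor with its stroma, so that fewer cells of a type and less RNA per cell cannot be told apart. The labels give no age for the mice. The table names its columns by a letter and a number, F187, F325, F331 and F368 for the p53-driven tumors and M351, M408, M9, M624 and M664 for the Myc-knockin tumors, and these names are kept below. The labels do not give the column names. The study names lines with the other 6 of these numbers by genotype, while M351, M9 and M664 were placed in the Myc-knockin group by their letter.

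Small leucine-rich proteoglycans are secreted proteins built around a row of leucine-rich repeats that fold into a curved band. Most carry chondroitin, dermatan or keratan sulfate chains, and several bind collagen fibrils and set their spacing and thickness. Some also bind growth factors of the TGF-β family and receptors on cells. Biglycan, decorin, osteomodulin and osteoglycin are known components of bone matrix. Versican belongs to another family, the hyalectans, which are large proteoglycans that bind hyaluronan and fill the loose matrix of early connective tissue.

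Of the 9 genes, Bgn, Dcn and Lum were lower in the Myc-knockin tumors, and none was called higher. The test was edgeR's quasi-likelihood F test on all 15365 genes that passed the filter on low counts, and a call required a Benjamini-Hochberg adjusted p below 0.05 together with a change larger than 1.5-fold. At this threshold 3 of the 9 genes were called lower, against 3.00% of all tested genes, and 0 of 9 were called higher, against 2.26% of all tested genes. At an unadjusted p under 0.05, 6 of the 9 genes differed in edgeR, against 26.8% of all tested genes. The median log2 fold change of the 9 genes was -2.20, where the median of all tested genes was 0.14 and 43.8% of them were negative. DESeq2 called 5 of the 9 genes lower and none higher, against 7.20% of all tested genes called lower, and the additional genes were Fmod and Ogn. For Bgn, Dcn, Lum and Fmod every Myc-knockin tumor was below every p53-driven tumor. This held for 4 of the 9 genes and for 7.54% of all tested genes.

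**Figure D1:**
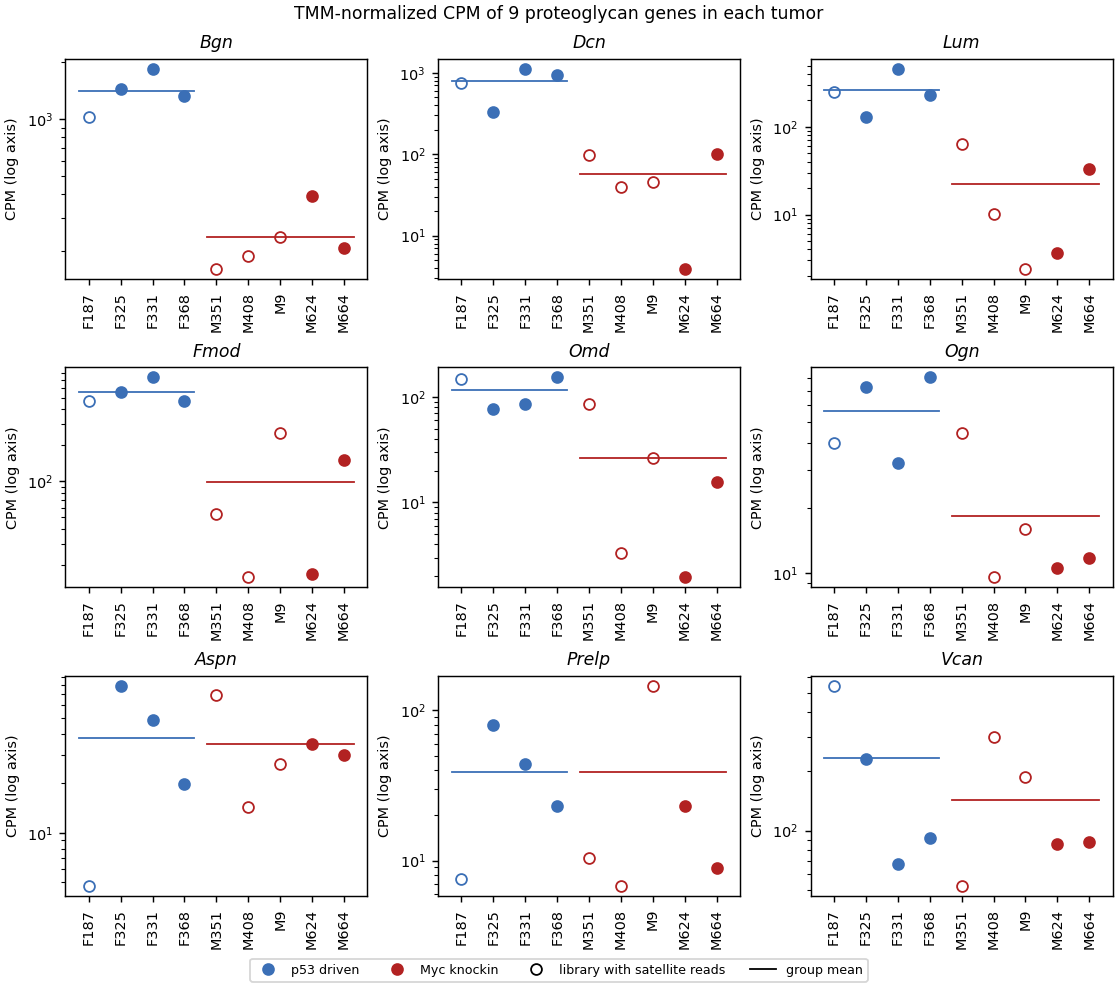
Each panel plots the expression of 1 gene in each tumor as TMM-normalized CPM on a log axis. Blue points are p53-driven tumors, red points Myc-knockin tumors, open points the 4 libraries with satellite reads, and lines the group means. In the panels of Bgn, Dcn, Lum and Fmod the 2 groups do not overlap, and in the other 5 panels they do.

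The libraries differed in depth and in the RNAs they hold. Total counts were between 2716322 and 17073285 per tumor. Reads on 10 satellite-repeat genes made up 23.2% to 81.0% of the total in 4 libraries (F187, M351, M408 and M9) and no more than 0.0242% elsewhere, so that only 672941 counts outside these genes were left in M9 and 873634 in M351. Rn7sk, an RNA polymerase III transcript that is not polyadenylated, was nearly absent from M624 (5.33 CPM of the counts outside the satellite genes) and M664 (9.32 CPM) but reached 8858 CPM or more in each of the other 7 libraries. All other expression values are CPM relative to the TMM-normalized library size. Myc itself, the targeted gene, was between 144 and 1045 CPM in the 5 Myc-knockin and between 43.5 and 67.1 CPM in the 4 p53-driven tumors (log2 fold change 3.41, edgeR adjusted p = 0.0217). Osteoblast markers (12 genes, among them Runx2 and Ibsp) summed to between 2414 and 8524 CPM in 8 tumors and to 360.4 CPM in M624, where Runx2 was at 9.18 CPM. In each library the reads on 1779 chemosensory receptor genes, per kilobase of exon, served as a measure of background, and multiplied by the exon kilobases of a proteoglycan gene they gave its expected background reads. The part of these library differences in the results below was not tested. Values without the libraries concerned stand beside the results of Bgn, Dcn, Lum, Fmod, Omd and Ogn.

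The genes of the family lie in clusters on the mouse genome (mm10, GENCODE annotation). Dcn (ENSMUSG00000019929, chr10:97479609-97518143) and Lum (ENSMUSG00000036446, chr10:97565128-97572703) are neighbours on the plus strand, 46984 bp apart. Aspn (ENSMUSG00000021388, chr13:49544443-49567565), Omd (ENSMUSG00000048368, chr13:49582462-49592822) and Ogn (ENSMUSG00000021390, chr13:49608046-49624501) follow each other on the plus strand, with gaps of 14896 bp and 15223 bp. Prelp (ENSMUSG00000041577, chr1:133910304-133921414, minus strand) and Fmod (ENSMUSG00000041559, chr1:134037254-134048277, plus strand) are 115839 bp apart. Between the members of each of these clusters the annotation places 0 other protein-coding genes. Bgn (ENSMUSG00000031375, chrX:73483602-73495933, plus strand) and Vcan (ENSMUSG00000021614, chr13:89655312-89742509, minus strand) stand alone. The exons of Prelp share 350 bp, 9.68% of its exon length, with Gm15851 on the other strand, which had at most 1 count in a library. Cenpp runs antisense across Aspn, Omd and Ogn, and of their exons it overlaps only 7 bp, all in Aspn.

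Neighbouring genes did not all have similar values. On chromosome 10, Dcn and Lum both were called lower in the Myc-knockin tumors. On chromosome 13, Omd and Ogn had log2 fold changes of -2.20 and -1.66 and their neighbour Aspn one of -0.15, which turned positive under other processing (0.023 with upper-quartile normalization, 0.43 with limma-voom). On chromosome 1, Fmod had -2.52 and Prelp -0.05. The difference between neighbours was not tested.

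Promoter sequence, the 250 bases before the RefSeq start, was read for 7 of the 9 genes, all but Dcn and Lum (GRCm38.p6). The promoter of Bgn is shown because Bgn had the smallest adjusted p of the 9 genes, and that of Ogn because it is the only one of the 7 with a RUNX motif. In Bgn the capitals mark matches to the GC box of SP factors (GGGCGG or its reverse complement), of which the last 2 overlap. In Ogn they mark, from 5′ to 3′, a pair of overlapping TATA-box words (TATAAA, read on both strands) and a match on the reverse strand to the core motif of RUNX factors (TGTGGT), the family of the osteoblast regulator Runx2. Both are printed on their own plus strand, 5′ to 3′.
Bgn, chrX:73483351-73483600: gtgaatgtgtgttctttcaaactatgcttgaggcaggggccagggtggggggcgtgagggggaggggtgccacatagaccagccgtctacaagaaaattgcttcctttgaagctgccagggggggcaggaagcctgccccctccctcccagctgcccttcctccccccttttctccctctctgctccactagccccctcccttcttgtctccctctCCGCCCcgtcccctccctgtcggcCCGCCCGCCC
Ogn, chr13:49607765-49608014: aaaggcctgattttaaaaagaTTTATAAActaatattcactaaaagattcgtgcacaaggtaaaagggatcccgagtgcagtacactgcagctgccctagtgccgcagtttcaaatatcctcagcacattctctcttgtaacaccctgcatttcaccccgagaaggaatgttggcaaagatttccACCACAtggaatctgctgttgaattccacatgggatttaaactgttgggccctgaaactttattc
The 3 GC-box matches of Bgn lie within the last 34 bases before the start, and the promoter has 64.4% G and C. The RUNX match of Ogn lies 65 to 60 bases before the start. None of the 7 promoters holds the E-box of MYC and MAX (CACGTG), which is present in 6.02% of 32851 mouse promoters of this length, nor the AP-1 motif (TGANTCA), present in 6.75%. The RUNX motif was found in 1 of the 7 and in 14.0% of all promoters, the GC box in 2 of the 7 (Bgn and Vcan) and in 32.7%, and the TATA-box word in 2 of the 7 (Ogn and Aspn) and in 12.4%. The windows of Fmod, Omd and Prelp hold none of the 5 motifs. A match is a run of letters and was not tested as a binding site.

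Among class I proteoglycans, which carry chondroitin or dermatan sulfate, Bgn encodes biglycan, a promoter of bone formation that binds collagen I and signals through Toll-like receptors. Expression of Bgn in the p53-driven tumors was 1031 CPM in F187, 1440.1 CPM in F325, 1843 CPM in F331 and 1323 CPM in F368. In the Myc-knockin tumors it was 160.0 CPM in M351, 188 CPM in M408, 238 CPM in M9, 392 CPM in M624 and 208 CPM in M664. The lowest p53-driven tumor was thus far above the highest Myc-knockin tumor, and the values within each group were close together. The means were 1409 ± 337 CPM (SD, n = 4) and 237 ± 90.9 CPM (SD, n = 5), a 5.94-fold difference in the fit (log2 fold change -2.57, standard error 0.39, edgeR adjusted p = 0.0175). The call was lost when F325, F331 or F368 was left out (edgeR adjusted p = 0.0647, 0.0640 and 0.0660), at log2 fold changes of -2.55, -2.40 and -2.62, and with library size alone as the scaling (-2.60, edgeR adjusted p = 0.108). Without these single tumors edgeR called 8, 6 and 5 genes in all. Bgn was as much lower within the 4 satellite libraries (log2 CPM difference -2.42, 3 Myc-knockin tumors against F187 alone) as within the other 5 (-2.41, 2 tumors against 3). Among these other 5, the Myc-knockin libraries were M624 and M664, which nearly lacked Rn7sk, while the p53-driven libraries did not. Library type was thus not held fixed there. It was also lower without M624 and M664 (log2 fold change -2.79, edgeR adjusted p = 0.0241).

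Dcn encodes decorin, which binds collagen fibrils and sequesters TGF-β. Its expression was 754 CPM in F187, 332 CPM in F325, 1114 CPM in F331 and 945 CPM in F368. Among Myc-knockin tumors the values were 97.9 CPM in M351, 40.1 CPM in M408, 45.4 CPM in M9, 3.89 CPM in M624 and 99.5 CPM in M664. The groups did not overlap, and M624 stood far below the other 4 Myc-knockin tumors. The means were 786 ± 336 CPM (SD, n = 4) and 57.4 ± 41.0 CPM (SD, n = 5), a 13.7-fold difference in the fit (log2 fold change -3.78, standard error 0.76, edgeR adjusted p = 0.0265). Without M624 its log2 fold change came to -3.41 (edgeR adjusted p = 0.0222), and without both M624 and M664 it was -3.64 (edgeR adjusted p = 0.0274). The call was lost without F325, F331 or F368 (edgeR adjusted p = 0.0709, 0.0931 and 0.0961) and without the 4 satellite libraries (log2 fold change -3.92, edgeR adjusted p = 0.0777). The low level in M624 rested on 102 counts, against 0.241 expected background reads. In M9 the 57 counts of Dcn stood beside an expected background of 7.26 reads.

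Aspn encodes asporin, a class I member with an aspartate-rich stretch that binds TGF-β and, unlike its relatives, lacks the usual attachment site for a chain. Its expression was 4.74 CPM in F187, 78.9 CPM in F325, 48.6 CPM in F331 and 19.9 CPM in F368. The Myc-knockin tumors had 69.6 CPM in M351, 14.5 CPM in M408, 26.3 CPM in M9, 34.9 CPM in M624 and 29.7 CPM in M664. All 5 Myc-knockin values lay inside the range of the p53-driven tumors, which spanned 16.6-fold. The means were 38.0 ± 32.7 CPM (SD, n = 4) and 35.0 ± 20.7 CPM (SD, n = 5), and no difference was called (log2 fold change -0.15, standard error 0.65, edgeR adjusted p = 0.915). F187 held only 12 counts of Aspn, with 1.67 background reads expected. Without F187 its log2 fold change came to -0.54 (edgeR adjusted p = 0.566), and without F325 it was 0.49 (edgeR adjusted p = 0.724).

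Of the class II members, which carry keratan sulfate, Lum encodes lumican, a collagen-binding protein best known from the cornea. Its expression was 249 CPM in F187, 128 CPM in F325, 456 CPM in F331 and 229 CPM in F368. In the Myc-knockin tumors it was 63.4 CPM in M351, 10.1 CPM in M408, 2.39 CPM in M9, 3.66 CPM in M624 and 33.3 CPM in M664. The groups did not overlap, and the Myc-knockin tumors spanned 26.5-fold among themselves. The value in M9 rested on 3 counts, with 3.04 background reads expected, and so was not above background there. The means were 265 ± 137 CPM (SD, n = 4) and 22.6 ± 26.0 CPM (SD, n = 5), an 11.9-fold difference in the fit (log2 fold change -3.57, standard error 0.84, edgeR adjusted p = 0.0392). The call was kept without M351 (edgeR adjusted p = 0.0367) and without M9 (edgeR adjusted p = 0.0338). It was lost in the other 7 fits with 1 tumor left out, at edgeR adjusted p values of 0.0628 without F187, 0.0897 without F325, 0.127 without F331, 0.120 without F368, 0.0556 without M408, 0.0535 without M624 and 0.0539 without M664. The log2 fold change stayed between -4.36 and -3.18 in all 9 of these fits. Lum also lost its call without M624 and M664 together (log2 fold change -3.36, edgeR adjusted p = 0.0685). It was still called without the 4 satellite libraries (-3.85, edgeR adjusted p = 0.0440), in a fit that called 4595 of 16495 tested genes.

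Fmod encodes fibromodulin, which binds the same site on collagen as lumican and guides fibril growth in tendon. Its expression was 469 CPM in F187, 557 CPM in F325, 739 CPM in F331 and 474 CPM in F368. Among Myc-knockin tumors the values were 53.6 CPM in M351, 15.8 CPM in M408, 254 CPM in M9, 16.8 CPM in M624 and 151 CPM in M664. The groups did not overlap, the p53-driven tumors lay within 1.58-fold of each other, and the Myc-knockin tumors spanned 16.1-fold. The means were 559.8 ± 126 CPM (SD, n = 4) and 98.2 ± 103 CPM (SD, n = 5), with a log2 fold change of -2.52 (standard error 0.76, edgeR adjusted p = 0.0700) that did not pass the threshold. DESeq2 called it (adjusted p = 0.00475), and edgeR did so without M9 (log2 fold change -3.24, adjusted p = 0.0268). In all, 4 of 21 alternatives called Fmod. Without M624 and M664 its log2 fold change was -2.36 (edgeR adjusted p = 0.111). Without the 4 satellite libraries it was -2.79 (edgeR adjusted p = 0.0657).

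Omd encodes osteomodulin, also called osteoadherin, a keratan sulfate proteoglycan of mineralizing bone that binds cells and hydroxyapatite. Its expression was 149 CPM in F187, 76.5 CPM in F325, 85.1 CPM in F331 and 153 CPM in F368. The Myc-knockin tumors had 84.9 CPM in M351, 3.30 CPM in M408, 26.3 CPM in M9, 1.94 CPM in M624 and 15.5 CPM in M664. M351 reached the level of the lower p53-driven tumors, and the other 4 Myc-knockin tumors were below all of them. The means were 116 ± 40.7 CPM (SD, n = 4) and 26.4 ± 34.2 CPM (SD, n = 5), and the log2 fold change of -2.20 (standard error 0.88) did not pass the threshold (edgeR adjusted p = 0.140, DESeq2 adjusted p = 0.0503). It passed without M351 (log2 fold change -3.41, edgeR adjusted p = 0.0488) and without the 4 satellite libraries (-3.55, edgeR adjusted p = 0.0349). These were the only 2 of 21 alternatives that called Omd. The fit without the satellite libraries called 4595 of 16495 tested genes, against 809 of 15365 in the main fit. It compared M624 and M664, which nearly lacked Rn7sk, with F325, F331 and F368, which did not. Without M624 and M664 its log2 fold change was -1.60 (edgeR adjusted p = 0.251), and without F368 -2.07 (edgeR adjusted p = 0.314).

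Prelp encodes a basic proline- and arginine-rich member that ties basement membranes to collagen. Its expression was 7.50 CPM in F187, 80.4 CPM in F325, 43.8 CPM in F331 and 23.1 CPM in F368. In the Myc-knockin tumors it was 10.5 CPM in M351, 6.78 CPM in M408, 146 CPM in M9, 23.1 CPM in M624 and 8.94 CPM in M664. The groups overlapped throughout, and M9 was the highest of all 9 tumors. The means were 38.7 ± 31.5 CPM (SD, n = 4) and 39.0 ± 60.0 CPM (SD, n = 5), and no difference was called (log2 fold change -0.05, standard error 0.93, edgeR adjusted p = 0.981). Without M9 its log2 fold change came to -1.64 (edgeR adjusted p = 0.127). The value in M9 rested on 183 counts, with 4.49 background reads expected.

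Ogn encodes osteoglycin, or mimecan, a class III member found in bone matrix. Its expression was 39.9 CPM in F187, 72.4 CPM in F325, 32.2 CPM in F331 and 80.5 CPM in F368. Among Myc-knockin tumors the values were 44.3 CPM in M351, 9.52 CPM in M408, 15.9 CPM in M9, 10.6 CPM in M624 and 11.7 CPM in M664. As for Omd, M351 lay among the p53-driven tumors and the other 4 Myc-knockin tumors below them. The means were 56.2 ± 23.8 CPM (SD, n = 4) and 18.4 ± 14.7 CPM (SD, n = 5), and the log2 fold change of -1.66 (standard error 0.50) did not pass the threshold in edgeR (adjusted p = 0.0701). DESeq2 called it (adjusted p = 0.0174), as did edgeR without M351 (log2 fold change -2.26, edgeR adjusted p = 0.0358) and without the satellite libraries (-2.44, edgeR adjusted p = 0.0152). In all, 4 of 21 alternatives called Ogn. The fit without the satellite libraries called 4595 of 16495 tested genes. Without M624 and M664 its log2 fold change was -1.26 (edgeR adjusted p = 0.187).

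Vcan encodes versican. Its expression was 544 CPM in F187, 231 CPM in F325, 67.5 CPM in F331 and 91.3 CPM in F368. The Myc-knockin tumors had 52.3 CPM in M351, 300.0 CPM in M408, 188 CPM in M9, 85.2 CPM in M624 and 87.2 CPM in M664. The groups overlapped, with the highest values in F187 and M408. The means were 233 ± 219 CPM (SD, n = 4) and 143 ± 102 CPM (SD, n = 5), and no difference was called (log2 fold change -0.71, standard error 0.66, edgeR adjusted p = 0.522). Without F187 its log2 fold change came to 0.10 (edgeR adjusted p = 0.938). Because the gene has 14462 bp of exon, it had the most expected background reads of the 9 genes, with 16.3 of its 85 counts in M351 and 18.0 of its 236 counts in M9 expected as background. As a share of the counts, background was larger for Prelp in M351 and for Lum, Ogn, Dcn, Aspn and Omd in M9.

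**Figure D2:**
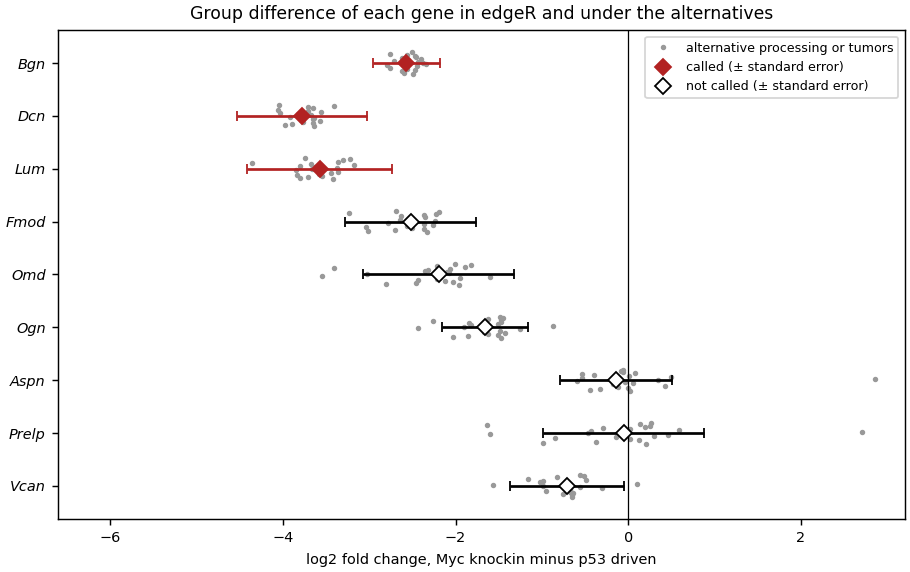
The log2 fold change of each gene, Myc knockin minus p53 driven, is drawn as a diamond with its standard error in edgeR, filled red where called, and each grey point is the same value under 1 alternative processing or with tumors left out. Every grey point of Bgn, Dcn, Lum, Fmod, Omd and Ogn lies below 0, while those of Aspn, Prelp and Vcan fall on both sides.

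The standard errors left wide room for the genes that were not called. For Aspn, Prelp and Vcan they were 0.65, 0.93 and 0.66 on the log2 scale. Across all alternatives the log2 fold change ranged from -0.59 to 2.86 for Aspn, from -1.64 to 2.71 for Prelp and from -1.57 to 0.10 for Vcan. The upper values of Aspn and Prelp came from the satellite libraries alone, where F187 is the only p53-driven tumor.

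To compare levels between genes, CPM was divided by exon length. In the p53-driven tumors the mean level in CPM per kilobase was 231 for Bgn, 169 for Fmod, 135 for Dcn and 108 for Lum. It was 51.5 for Omd, 21.9 for Ogn, 16.2 for Aspn, 16.1 for Vcan and 10.7 for Prelp. Neighbours in this order were mostly closer than their spread over tumors, as Dcn and Lum had SDs of 57.6 and 56.1 CPM per kilobase. In the Myc-knockin tumors Bgn with 38.9 CPM per kilobase and Fmod with 29.7 were again the highest. Aspn followed with 14.9, Omd with 11.7, Prelp with 10.8, Vcan with 9.86, Dcn with 9.82, Lum with 9.22 and Ogn with 7.18. The SDs of these last 7 genes were between 5.72 and 16.6 CPM per kilobase, larger than the steps between them.

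Summed over the 9 genes, the length-scaled level was 665 CPM per kilobase in F187, 648 in F325, 991 in F331 and 736 in F368. It was 176 in M351, 80.6 in M408, 207 in M9, 104 in M624 and 143 in M664. The sums did not overlap between the groups. The make-up of the sum differed between tumors as well. Bgn gave 25.4% to 36.5% of it in the p53-driven tumors and 14.9% to 62.0% in the Myc-knockin tumors, with the highest share in M624. Omd had its highest share in M351 (21.4%), Vcan in M408 (25.7%), and Fmod and Prelp in M9 (37.1% and 19.5%), so that a different gene stood out in each of these Myc-knockin tumors. Aspn gave 0.303% to 5.17% in the p53-driven and 5.39% to 16.8% in the Myc-knockin tumors. These shares did not overlap, though 5.17% and 5.39% are close, while the CPM of Aspn did. Because the sum itself was lower in the Myc-knockin tumors, a gene with an unchanged level takes a larger share there. Dcn gave 8.78% to 22.0% in the p53-driven and 0.643% to 11.9% in the Myc-knockin tumors, with overlap.

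**Figure D3:**
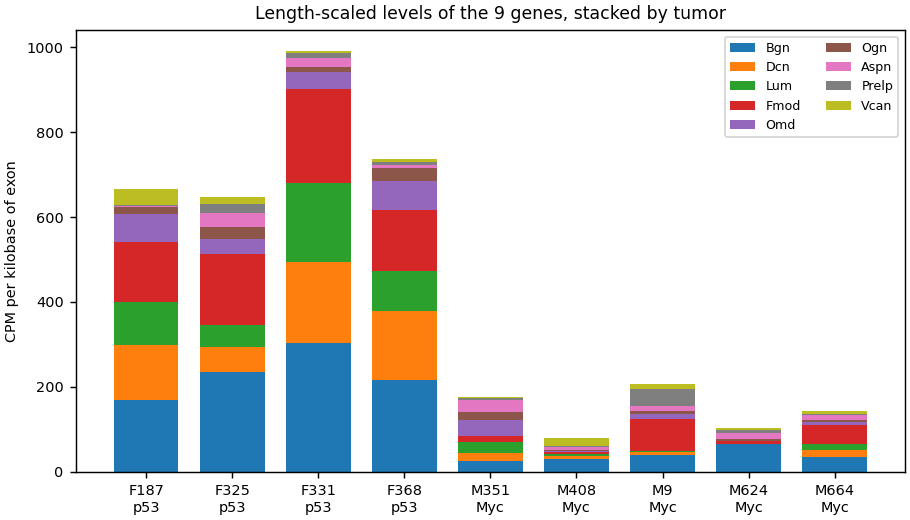
Each bar is 1 tumor, and its coloured segments are the levels of the 9 genes in CPM per kilobase of exon, stacked from 0. The 4 p53-driven bars reach 648 to 991 and the 5 Myc-knockin bars 80.6 to 207, and the Myc-knockin bars differ from each other in which gene is thickest.

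Ratios of counts within a tumor do not depend on how libraries are scaled to each other. For each of 4 pairs the log2 ratio was compared between the groups by a two-sided exact permutation test over the 126 arrangements of the tumors, whose smallest p is 0.0159, with Benjamini-Hochberg adjustment over the 4 pairs. The ratio of Bgn to Dcn was 1.37 in F187, 4.33 in F325, 1.66 in F331 and 1.40 in F368. It was 1.64 in M351, 4.69 in M408, 5.25 in M9, 101 in M624 and 2.09 in M664. The extreme ratio in M624 came from its low Dcn beside the highest Bgn of the Myc-knockin group. The mean log2 ratio was 0.94 ± 0.79 (SD, n = 4) and 2.61 ± 2.37 (SD, n = 5), which was not a difference beyond the spread (exact permutation p = 0.111, adjusted p = 0.190). The difference in mean log2 ratio was 1.66, and 0.65 without M624. The ratio of Vcan to Bgn was 0.527 in F187, 0.160 in F325, 0.0366 in F331 and 0.0690 in F368. It was 0.327 in M351, 1.59 in M408, 0.789 in M9, 0.218 in M624 and 0.420 in M664. Only M408 held more reads of Vcan than of Bgn. The mean log2 ratio was -3.05 ± 1.66 (SD, n = 4) and -0.95 ± 1.13 (SD, n = 5), with an exact permutation p of 0.0794 (adjusted p = 0.190).

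The ratio of Fmod to Lum ranged from 1.62 to 4.34 in the p53-driven and from 0.845 to 106 in the Myc-knockin tumors, where the highest value, in M9, rested on the 3 counts of Lum (exact permutation p = 0.571, adjusted p = 0.571). Without M9 the mean difference was -0.0032 on the log2 scale. The ratio of Omd to Ogn, neighbours on chromosome 13, ranged from 1.06 to 3.73 in the p53-driven and from 0.183 to 1.92 in the Myc-knockin tumors (exact permutation p = 0.143, adjusted p = 0.190). The difference in mean log2 ratio was -1.46, and -0.94 without M624. M408 and M624 were below 1, at 0.346 and 0.183, and every other tumor was above it.

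**Figure D4:**
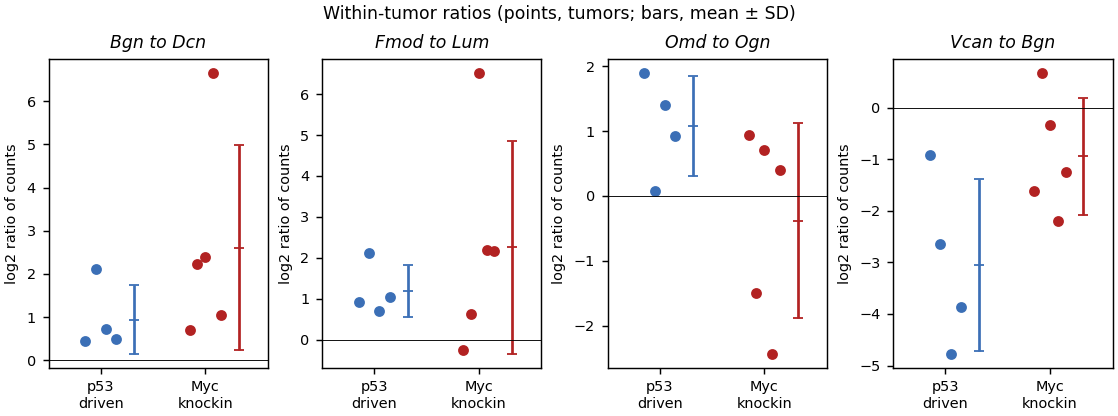
The log2 ratio of counts is plotted for 4 gene pairs, with 1 point per tumor, p53-driven tumors in blue and Myc-knockin tumors in red, and bars for the mean ± SD beside each group. The groups overlap in all 4 panels, and the Myc-knockin points spread more widely for Bgn to Dcn, where M624 stands at 6.65, and for Fmod to Lum, where M9 stands at 6.51.

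The genes with the most similar pattern were sought among tested genes with at least 10 CPM on average, by the root mean square difference of log2 CPM, each gene centred on its own mean over the 9 tumors. For Bgn these were Mrc2, a collagen uptake receptor, at 0.458 and Nfatc1, a transcription factor required for osteoclasts, at 0.480. For Dcn they were Fat3 at 0.725 and Fap, a protease of activated fibroblasts, at 0.726. For Lum the distances were larger, and the nearest genes were Ctsk and Atp6v0d2, both genes of osteoclasts, at 1.02 and 1.06. Fmod was nearest to the collagen genes Col1a2 at 0.637 and Col11a2 at 0.674. Omd was nearest to Scrn1 at 0.556 and B4galnt3 at 0.597, and Ogn to Phldb2 at 0.447 and Zfp9 at 0.483. Prelp was nearest to Tspan2 at 0.976 and Lman2l at 0.984, and Vcan to Ulbp1 at 0.688 and Agtpbp1 at 0.700.

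Aspn and Thbs4, which encodes a thrombospondin of tendon and muscle matrix, were the closest pair, at 0.290. Thbs4 was at 6.32 CPM in F187, 133 CPM in F325, 54.4 CPM in F331 and 23.1 CPM in F368. In the Myc-knockin tumors it was at 95.4 CPM in M351, 28.0 CPM in M408, 46.2 CPM in M9, 44.6 CPM in M624 and 31.3 CPM in M664. As for Aspn, the lowest tumor was F187, and the highest 2 were F325 and M351. The next gene for Aspn was Rgs5, a pericyte gene, at 0.746. Among the 9 genes themselves the closest pairs were Bgn and Ogn at 1.03 and Dcn and Lum at 1.06, and the farthest pair was Lum and Prelp at 3.16.

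The other members of the small leucine-rich family did not share a direction. Of 10 further genes, 6 were tested, 3 with a negative and 3 with a positive log2 fold change (median -0.00), and 0 were called by edgeR or DESeq2. At an unadjusted p under 0.05 in edgeR, 1 was lower and 0 higher, against 26.8% of all tested genes in either direction. Tsku, which encodes the secreted signal regulator tsukushi, averaged 41.1 ± 14.8 CPM (SD, n = 4) in p53-driven tumors and 19.7 ± 10.1 CPM (SD, n = 5) in Myc-knockin tumors (log2 fold change -1.05, edgeR adjusted p = 0.146). Chad, which encodes chondroadherin of cartilage, was at 2.54 ± 2.80 CPM (SD, n = 4) and 7.25 ± 2.75 CPM (SD, n = 5) (log2 fold change 1.48, edgeR adjusted p = 0.215). Chadl had a log2 fold change of 1.01, Podn of 0.49, Ecm2, next to Aspn, of -0.49 and Podnl1 of -0.53, with edgeR adjusted p values between 0.490 and 0.709. Kera and Epyc, which follow Lum on chromosome 10, Optc next to Prelp, and Nyx had too few counts to be tested.

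Genes that act on or with these proteoglycans were counted in lists. Of 11 collagen partners, all 11 had a negative log2 fold change, with a median of -1.90. Col5a1, Col6a1 and Col12a1 were called lower by edgeR, against 3.00% of all tested genes. For 8 of the 11 the groups did not overlap, against 7.54% of all tested genes. DESeq2 called 9 lower and 0 higher, against 7.20% of all tested genes called lower. At an unadjusted p under 0.05 in edgeR, 10 were lower and 0 higher, against 26.8% of all tested genes in either direction. The largest changes were Col1a1 (log2 fold change -3.00, edgeR adjusted p = 0.0682) and Col1a2 (-2.87, edgeR adjusted p = 0.0817), called only by DESeq2. Col12a1, a collagen on the surface of fibrils, averaged 1134 ± 249 CPM (SD, n = 4) in p53-driven tumors and 234 ± 62.1 CPM (SD, n = 5) in Myc-knockin tumors (log2 fold change -2.28, edgeR adjusted p = 0.0175). The log2 fold change was -2.24 for Col5a1, which starts collagen I fibrils, and -1.88 for Col6a1, of the beaded filaments that bind biglycan and decorin (edgeR adjusted p = 0.0265 and 0.0422).

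Of 12 proteases that cut versican or small proteoglycans, edgeR called 4 lower and 0 higher, against 3.00% and 2.26% of all tested genes. Their median log2 fold change was -1.29. DESeq2 called 5 lower and 1 higher, against 7.20% of all tested genes called lower and 2635 of 15365 called in either direction. At an unadjusted p under 0.05 in edgeR, 7 were lower and 1 higher, against 26.8% of all tested genes in either direction. The gene higher in DESeq2 was Adamts20, with the largest change of the list, at 1.55 ± 1.68 CPM (SD, n = 4) in p53-driven and 11.3 ± 9.37 CPM (SD, n = 5) in Myc-knockin tumors (log2 fold change 2.95, adjusted p = 0.135 in edgeR and 0.0307 in DESeq2). The versican-cutting aggrecanases Adamts4 and Adamts9 had log2 fold changes of -1.57 and -2.10 (edgeR adjusted p = 0.0217 and 0.0229). The matrix metalloproteases Mmp2 and Mmp14, which cut decorin and other matrix proteins, both had -1.79 (edgeR adjusted p = 0.0252 and 0.0412). Vcan itself was not called, so that these proteases and Vcan stood on different sides of the threshold, and the difference between them was not tested. Of 10 tested genes for hyaluronan synthesis and binding, hyalectans and link proteins, 0 were called in edgeR (median log2 fold change -0.27), and the largest changes were Bcan at -2.28, Hapln4 at -1.50 and Hmmr at 1.44 (adjusted p = 0.194, 0.151 and 0.0773). At an unadjusted p under 0.05 in edgeR, 2 of these genes were lower and 1 higher, near the 26.8% of all tested genes in either direction. DESeq2 called 1 higher, Hmmr, where it called 2635 of all 15365 tested genes in either direction.

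Of the enzymes that build the sugar chains, Dse, which makes dermatan from chondroitin sulfate, was lower in Myc-knockin tumors (25.0 ± 5.40 CPM, SD, n = 5) than in p53-driven tumors (80.5 ± 16.5 CPM, SD, n = 4, log2 fold change -1.69, edgeR adjusted p = 0.0176). B4galt1, a galactosyltransferase, was also called lower (-1.18, edgeR adjusted p = 0.0453). These were 2 of 10 tested genes for dermatan and keratan sulfate (median -0.44), against 3.00% of all tested genes. DESeq2 called 3 of the 10 lower and 0 higher, against 7.20% of all tested genes called lower. At an unadjusted p under 0.05 in edgeR, 3 were lower and 0 higher, near the 26.8% of all tested genes in either direction. Of 6 enzymes of the linker that joins chain and core protein, Fam20b, the xylose kinase, was called lower (-1.06, edgeR adjusted p = 0.0411), and the median was 0.08. DESeq2 also called 1 of these 6 lower, and at an unadjusted p under 0.05 in edgeR 2 were lower and 0 higher. Of 12 growth factors and receptors bound by these proteoglycans, 11 had a negative log2 fold change (median -0.91) and 0 were called in edgeR, with Tlr2 at -1.43, Lrp1 at -1.42 and Itga2 at -1.30 (adjusted p = 0.0594, 0.0523 and 0.166). At an unadjusted p under 0.05 in edgeR, 5 of these were lower and 0 higher, against 26.8% of all tested genes in either direction. DESeq2 called 2 lower, Tlr2 and Lrp1, against 7.20% of all tested genes.

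**Figure D5:**
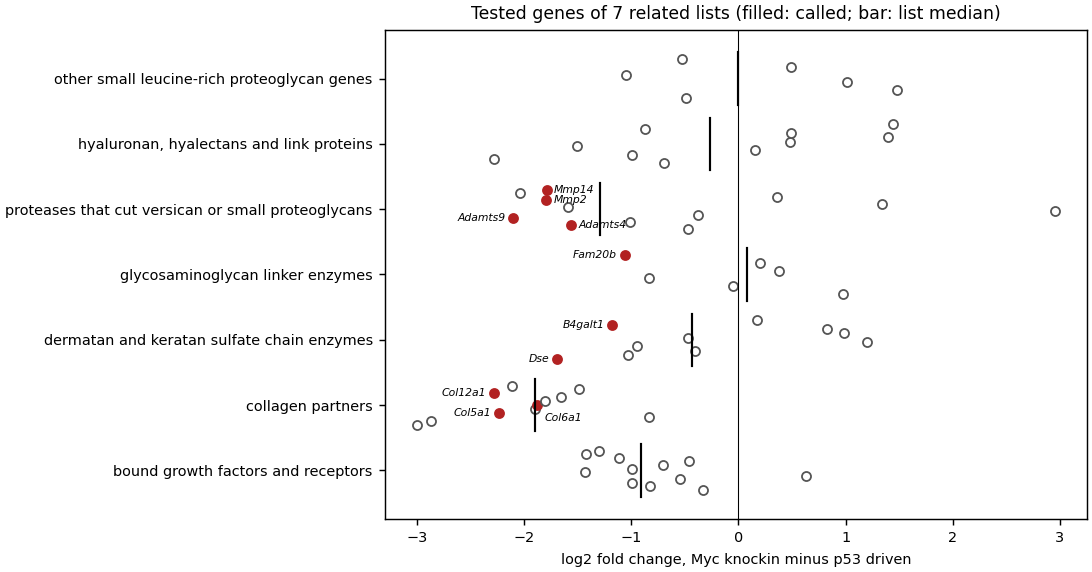
Each point is the log2 fold change of 1 tested gene, Myc knockin minus p53 driven, in 7 lists of related genes, with called genes filled red and named and a bar at each list's median. The 11 collagen partners all lie below 0, the proteases have a median of -1.29, and the 6 other small leucine-rich genes lie on both sides of 0 with none called in edgeR.

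Markers of cell types that can make these proteoglycans were summed for each tumor. Fibroblast and stroma markers (10 genes) summed to between 1124 and 1395 CPM in the p53-driven and between 332 and 521 CPM in the Myc-knockin tumors. Of 9 tested genes (median log2 fold change -0.62), Fap and Col15a1 were called lower (log2 fold change -2.95 and -2.02, edgeR adjusted p = 0.0321 and 0.0252), against 3.00% of all tested genes. Fap alone averaged 518 ± 153 CPM (SD, n = 4) in p53-driven and 67.7 ± 43.0 CPM (SD, n = 5) in Myc-knockin tumors, without overlap. Of the other stroma markers, Pdgfra had a log2 fold change of -1.05 and Thy1 of 1.55, and neither was called (edgeR adjusted p = 0.153 and 0.136). The tendon cell markers (Scx, Tnmd, Mkx, Thbs4 and Egr1) summed to between 71.2 and 202 CPM in the p53-driven and between 71.2 and 232 CPM in the Myc-knockin tumors. The sum in M408 was mostly Egr1 (198 CPM) and that in F325 mostly Thbs4 (133 CPM). Scx, Tnmd and Mkx were at most 16.9 CPM in any tumor. Of 4 tested genes 0 were called by edgeR or DESeq2. At an unadjusted p under 0.05 in edgeR, 1 was lower, against 26.8% of all tested genes in either direction. Chondrocyte markers summed to between 610.4 and 4113 CPM in the p53-driven and between 139 and 471 CPM in the Myc-knockin tumors, although 5 of 8 tested genes had a positive log2 fold change (median 1.02). Of these 8 edgeR called 0, with 2 lower and 3 higher at an unadjusted p under 0.05, and DESeq2 called 1 lower and 2 higher. Over all tested genes, 26.8% had an unadjusted p under 0.05 in edgeR. DESeq2 called 7.20% of them lower and 2635 of 15365 in either direction.

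Of 11 tested osteoblast markers, 10 had a negative log2 fold change (median -0.90), and Bglap and Bglap2, the osteocalcin genes, were called lower (-5.34 and -5.42, edgeR adjusted p = 0.0260 and 0.0288). Both had 0 counts in M408 and at most 1 count in M624. M408 and M624 were also the tumors with the lowest Omd and Fmod. M351 held only 1 count of Bglap and 2 of Bglap2, but had the highest Omd of the Myc-knockin tumors (84.9 CPM). Of 8 osteoclast markers, all 8 had a negative log2 fold change and 6 were called lower. The 8 macrophage markers were divided, 6 with a negative and 2 with a positive log2 fold change. Among them Cd68, Csf1r and Tyrobp were called lower, without overlap between the groups, and 5 were not called. Over all tested genes, 3.00% were called lower and 7.54% were lower without overlap. Skeletal muscle markers summed to 5582 CPM in F325 and 2564 CPM in M408, and to at most 625 CPM in the other 7 tumors. F325 was the p53-driven tumor with the highest Aspn and Prelp and the lowest Dcn and Lum. M408, in contrast, had the lowest Aspn (14.5 CPM) and Prelp (6.78 CPM) of the Myc-knockin tumors. Whether the mix of cell types had a part in the levels of the 9 genes was not tested.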

How the data were processed

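Whole-tumor RNA from 4 p53-driven and 5 Myc-knockin mice was sequenced after oligo-dT enrichment with a stranded kit. Per the submitters' notes, reads were treated with Trim Galore, STAR and featureCounts on mm10. The authors deposited raw counts per gene, 55367 genes in 9 columns, and 0 columns of values were left unused. The strand setting and the handling of reads with several map positions are not given in the sources used here. Nothing ties a column to a numbered sample, and p-values measure the spread between these tumors, taken as 1 per mouse.

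Counts were tested in R 4.3.3 with edgeR 4.0.16 (TMM, filterByExpr with a minimum count of 10, glmQLFit and glmQLFTest, no covariates), and p-values were adjusted by Benjamini-Hochberg over 15365 genes, with calls at 0.05 and a fold of 1.5. The standard error is the log2 fold change divided by the root of F. CPM values are TMM-normalized, with a prior count of 2 for log2 CPM. A floor of 3 counts corresponds to 0.114 CPM in M624 and 2.39 CPM in M9, and covers counting error only. Ratios had 0.5 added to each count. Exons come from the GENCODE annotation, which holds 55034 of the gene identifiers, and promoters from RefSeq (GRCm38.p6). A library was called a satellite library where Gm10800 took more than 10% of its counts. The scripts were tested on simulated data.

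All 9 members are named. Of the related lists, the small leucine-rich relatives and the genes called are named, otherwise at most 3 genes with the largest log2 fold change, and for each member the 2 genes most alike. Adamts20, Col1a1, Col1a2, Pdgfra, Thy1, Runx2 and Ibsp were named after their values were seen. The members and lists were chosen with earlier results of these data known. Alternatives were DESeq2 1.42.0, limma 3.58.1 (voom with quality weights), other scalings, filters and thresholds, background subtraction, and tumors left out. Further alternatives were chosen after seeing the data, namely the satellite class as a covariate and the satellite libraries alone.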

Additional observations from a re-analysis of the deposited data

Results flagged for a closer look

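Dcn in M624 stood apart from the other Myc-knockin tumors, at a log2 CPM of 2.03 (3.89 CPM). Its gap to the nearest tumor was 0.717 of the range of the 5 tumors, above the limit of Dixon's test. Among 18 groups of tumors examined it was the only such value, and chance gives about 1 in 20 groups. M624 was also the tumor with the lowest summed osteoblast markers (360.4 CPM) and the lowest Fap (5.98 CPM), and whether these share a source with the low Dcn was not tested.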

How the results depend on the processing

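The number of the 9 genes called lower was 3. It was 5 with all genes of at least 1 count, 5 with DESeq2, 5 at an adjusted p under 0.1, 0 in the satellite libraries alone (chosen after seeing the data), and 0 to 5 with single tumors left out, with 0 for each of F325, F331 and F368. None was called higher under any alternative tried. The number of all genes called, 809, was 136 with library size alone, 494 with all genes of at least 1 count, 1316 with at least 10 counts in every tumor, 2635 with DESeq2, 1663 with limma-voom, 4595 without the satellite libraries, 2016 with the satellite class as a covariate, 0 in the satellite libraries alone, 2248 at an adjusted p under 0.1, and 5 to 1588 with single tumors left out. The direction of Bgn, Dcn, Lum, Fmod, Omd and Ogn was negative in every alternative run, 21 each and 20 for Lum, which was not tested where at least 10 counts in every tumor were required.

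The log2 fold change of Aspn became 0.023 with upper-quartile normalization, 0.43 with limma-voom, 0.056 with background subtracted, 0.35 with the satellite class as a covariate and 2.86 in the satellite libraries alone, and with each tumor omitted in turn it lay between -0.54 and 0.49. That of Prelp became 0.21 with upper-quartile normalization, 0.13 with at least 10 counts in every tumor, 0.016 with DESeq2, 0.30 with background subtracted, 0.46 without M624 and M664 and 2.71 in the satellite libraries alone, and with each tumor omitted it lay between -1.64 and 0.59. That of Vcan lay between -1.16 and 0.10 with each tumor omitted. The mean log2 ratio of Bgn to Dcn differed by 0.65 to 2.13, that of Omd to Ogn by -1.79 to -0.94, that of Fmod to Lum by -0.0032 to 1.69, and that of Vcan to Bgn by 1.53 to 2.81 (exact permutation p = 0.0357 without F187), with single tumors left out. The cause of these changes was not tested. The median log2 fold change of all genes was 0.14, and it was -0.04 with limma-voom, 0.03 with library size alone, 0.24 with upper-quartile normalization and 0.97 with all genes of at least 1 count, where 47719 genes were tested. No paired analysis was possible because the columns carry no replicate numbers. Depth limits M9 and M351 most, where 3 counts of Lum were all that M9 held.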

Other observations

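Of the 10 tested hyaluronan, hyalectan and link protein genes, Bcan and Hapln4 were lower in Myc-knockin tumors without overlap, against 7.54% of all tested genes. Neither was called. Bcan, the brain hyalectan brevican, averaged 40.9 ± 15.2 CPM (SD, n = 4) in p53-driven tumors and 8.79 ± 8.16 CPM (SD, n = 5) in Myc-knockin tumors. Hapln4, a link protein, was at 30.3 ± 2.64 CPM (SD, n = 4) and 10.7 ± 9.16 CPM (SD, n = 5). Hmmr, a hyaluronan-binding protein of the mitotic spindle, was at 23.2 ± 13.2 CPM (SD, n = 4) and 63.9 ± 25.2 CPM (SD, n = 5), with overlap.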
